A study of Mus musculus with 24 samples.

Results

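Livers of mice that had both a high-fat diet and a sugar drink were compared with livers of mice on a normal diet and plain water, across all genes measured. The comparison took the 6 samples whose titles name both treatments (the combined group, high-fat high-sugar) and the 6 control samples, which are 12 of the 24 samples of the series. All 4 groups held livers of male C57BL/6J mice aged 16 weeks after 10 weeks of feeding, with 6 samples each. Control mice drank water on the normal diet, high-sugar mice drank a 23% (w/v) sugar solution on the normal diet, high-fat mice drank water on the high-fat diet, and the combined group received the same sugar drink on the high-fat diet. The labels name no transgene or other agent, and the mice are otherwise of one inbred strain. Nothing in the labels says whether each sample is a separate animal, so the p-values below measure the spread between these samples.

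The liver turns dietary sugar into fatty acids, stores fatty acids as triglyceride in lipid droplets, exports lipid in lipoproteins and burns it in mitochondria and peroxisomes. Diets rich in fat and sugar are widely used in C57BL/6J mice to produce fatty liver, in which resident and recruited macrophages, hepatic stellate cells (the collagen-producing cells of the liver) and the acute phase response of hepatocytes can all become active. In bulk liver RNA, fewer cells of a type and less RNA per cell cannot be told apart.

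Expression was read on Illumina bead arrays, and the values are background-subtracted fluorescence intensities that the authors had already scaled to the same distribution on every array. A value below a noise limit of 6.50 to 6.52 units, depending on the array, cannot be told from background, and 17976 to 18011 of 45281 probes per array lay above it. After a filter on dim probes, 11115 genes were tested, each by its brightest probe. Pearson correlations over these genes were 0.987 to 0.994 within control, 0.989 to 0.994 within the combined group and 0.974 to 0.984 between them, so no library stood apart from its group. Of the hepatocyte markers, the transthyretin gene Ttr had a mean intensity of 9938 in control and 13158 in the combined group. The 9 measured hepatocyte markers summed to between 125958 and 136751 in control and between 117620 and 132342 in the combined group. The albumin probe was dim (mean 61.0 and 120 units), far below the other hepatocyte markers, and its difference was not read as one of albumin mRNA. Differences are given on the log2(intensity + 32) scale with the standard error (SE) of the fit, and folds are of intensity plus 32, which understates the change of dim genes. "Rose" and "fell" are used for genes past an adjusted p of 0.05. Of the 9 hepatocyte markers, 2 rose (Ttr and the dim albumin probe) and 3 fell, among them Cps1 (-0.58), with a median of -0.14. Over all genes 19.0% rose and 16.5% fell.

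The test called 3949 of 11115 genes (35.5%), of which 2113 were higher in the combined group (19.0% of genes) and 1836 lower (16.5%). Most differences were small: the median size among called genes was 0.38 on the log2 scale, and 776 genes (6.98%) also reached 1.5-fold, 494 of them higher (4.44%) and 282 lower (2.54%). The 6 combined samples lay entirely above the 6 control samples for 920 genes (8.28%) and entirely below them for 659 (5.93%). The median difference over all genes was close to 0, at -0.003. The counts of list members that follow are to be read against the 19.0% and 16.5% of all genes.

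The 15 genes with the largest rises were the cytochromes Cyp2b9, Cyp2b23 and Cyp2b13 and the glutathione transferase Gsta1, the acute phase genes Lcn2, Orm2 and Saa1, the chemokines Ccl4 and Cxcl10, the lysosomal and galectin genes Gpnmb and Lgals3 of lipid-laden macrophages, the immediate early gene Egr1, the surface protein gene Ly6d, the annexin gene Anxa2 and Clstn3, which encodes a calsyntenin. The largest falls were in the steroid dehydrogenase gene Hsd3b5, the phosphatidate phosphatase genes Lpin1 and Lpin2, Cib3, the translation repressor gene Eif4ebp3, Cyp4a12b, Thrsp, Serpina1e, Ugt1a2, Ugt1a5, Scd1, the clock gene Ciart, Fkbp5, the complement gene C6 and Rgs16. Cib3, which encodes a calcium and integrin binding protein, ranged from 642 to 1974 in control (median 1330) and from 19.4 to 252 in the combined group (median 185), a difference of -3.11 (SE 0.37, adjusted p = 5.4e-07). Clstn3 ranged from 225 to 423 in control and from 1066 to 1544 in the combined group, a rise of 1.93 (SE 0.18), but its other probe differed by 0.26 and did not pass. Fkbp5, a target of the glucocorticoid receptor, had 118 to 681 units in control and 56.7 to 96.7 in the combined group, a difference of -1.76 (SE 0.26). None of these 3 pairs of groups overlapped.

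**Figure D1:**
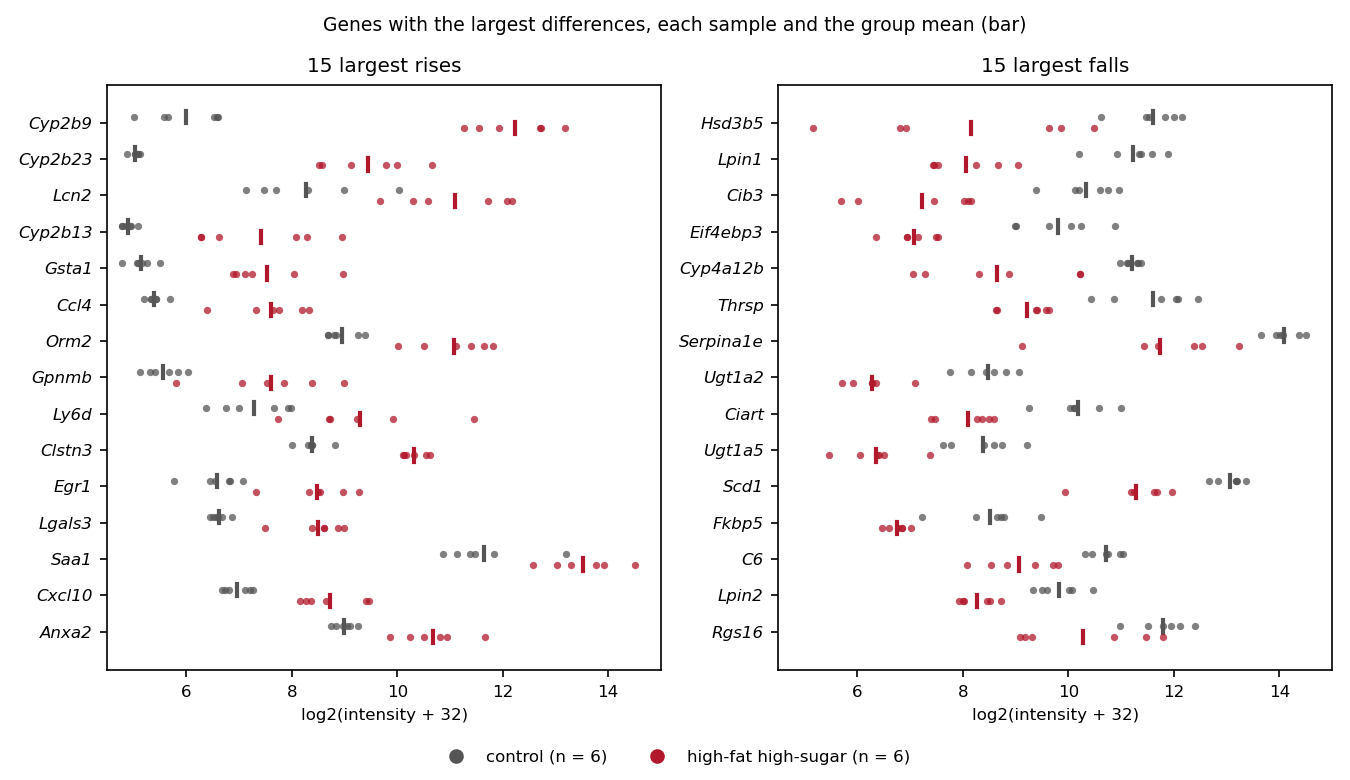
Each of the 6 control and 6 high-fat high-sugar samples for the 15 genes with the largest rises (left) and the 15 with the largest falls (right), on the log2(intensity + 32) scale, with the group mean as a bar. The groups stand fully apart for Cyp2b9 and Scd1 and overlap for Lcn2, Saa1, Gpnmb, Ly6d and Rgs16.

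Among genes of xenobiotic metabolism, Cyp2b9, Cyp2b23 and Cyp2b13 rose and the UDP-glucuronosyltransferase genes Ugt1a2 and Ugt1a5 fell. Cytochromes of the Cyp2b family oxidise drugs and steroids, and Cyp2b10 is a classic target of the nuclear receptor CAR (Nr1i3). Cyp2b9 had a lowest, median and highest intensity of 0.0156, 39.1 and 65.1 in control and 2423, 5269 and 9227 in the combined group. Every combined sample was therefore far above every control sample, and the difference was 6.24 (SE 0.60, 75.4-fold, adjusted p = 3.16e-08). Cyp2b23 had -2.63, 1.13 and 3.01 in control and 333, 692 and 1578 in the combined group. Cyp2b13 had -4.64, -2.21 and 1.76 in control and 45.6, 153 and 461 in the combined group. Neither gene rose above noise in any control sample, so their rises are lower bounds of at least 18.1-fold for Cyp2b23 (adjusted p = 8.72e-08) and at least 4.44-fold for Cyp2b13 (adjusted p = 3.78e-06), each set against the noise limit. Cyp2b13 would not have passed the filter on dim probes without the combined group, so its call is no support for counts of list members. Cyp2b10, also of this family, did not pass (0.06, SE 0.24), nor did Nr1i3 itself (-0.26, SE 0.13, adjusted p = 0.113; -0.33 and past the threshold without control replicate 2). These genes have closely similar sequences, and probes of one may catch another.

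Of the 46 measured xenobiotic genes, 13 rose and 7 fell, with a median of 0.07, against 19.0% and 16.5% of all genes. Cyp2b13 is among the 13, although its call is no support for this count. Gsta1, which conjugates glutathione to toxic products, had 86.6 to 467 units in the combined group and at most 13.1 in control, a rise of 2.39 (SE 0.30), and its other kept probes rose by 0.65 and 1.78. Only 1 of 6 control samples was above noise for Gsta1, so the size of its rise is uncertain. Cyp2c50 rose from 503 to 884 units to 1559 to 3292 (1.52, SE 0.16), Cyp2c37 by 0.82 (SE 0.13) and the retinal dehydrogenase gene Aldh1a1 by 1.38 (SE 0.13, adjusted p = 2.55e-08). Ugt1a2 had 184, 334 and 501 units in control and 20.3, 45.3 and 105 in the combined group, a difference of -2.20 (SE 0.28). Ugt1a5, a neighbour that shares its 3' exons with Ugt1a2, differed by -2.03 (SE 0.32). These glucuronidating enzymes thus lay lower in all 6 combined samples than in all 6 controls. The abundant drug cytochrome genes Cyp3a11 (0.18, SE 0.22) and Cyp1a2 (0.15, SE 0.12) did not pass.

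Scd1, Elovl6 and other genes of fatty acid synthesis fell. Of 20 measured members of de novo lipogenesis, 10 fell and 1 rose (median -0.30). Scd1, the desaturase that makes oleic acid from stearic acid, had 6478, 9280 and 10537 units in control and 953, 2759 and 3978 in the combined group, with no overlap, a difference of -1.80 (SE 0.29, adjusted p = 2.72e-05). Elovl6, which elongates palmitate, differed by -1.22 (SE 0.20), and the desaturase gene Fads2 by -0.63 (SE 0.11). Acacb, whose product makes the malonyl-CoA that restrains mitochondrial fatty acid entry, differed by -1.08 (SE 0.14, adjusted p = 1.66e-06). Thrsp, a nuclear protein tied to lipogenesis, had 1348 to 5626 units in control and 363 to 761 in the combined group, a difference of -2.39 (SE 0.27). The member that rose was the polyunsaturated fatty acid elongase gene Elovl5 (0.50, SE 0.10). The transcription factor gene Srebf1 (-0.07, SE 0.13) and the citrate lyase gene Acly (-0.06, SE 0.13) did not pass, and the Fasn probe was near noise (mean 7.25 units in control).

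In triglyceride synthesis, 4 of 12 measured members fell and 2 rose (median -0.13). Lpin1, which makes diacylglycerol, had 1144, 2589 and 3762 units in control and 140, 212 and 499 in the combined group, a difference of -3.16 (SE 0.35, 8.92-fold, adjusted p = 2.4e-07). Lpin2 differed by -1.55 (SE 0.18, adjusted p = 3.86e-07), although its dimmer probes differed by -0.46, -0.27 and 0.10. Of the enzymes of the last step, Dgat1 differed by -0.68 (SE 0.09) and Dgat2, the far brighter of the pair, by -0.10 (SE 0.09, adjusted p = 0.45). The acyltransferase gene Agpat2 rose by 0.44 (SE 0.13), but its second probe, also bright (1157 and 1170 units), differed by 0.01, and the call was lost with the mean of all probes (0.23, adjusted p = 0.0983). Only 1 member of this list rose under several alternatives, among them without control replicate 2, 3, 4 or 5 or combined replicate 1, 3 or 5.

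Among lipid droplet and lipolysis genes, 6 of 18 rose and 3 fell (median 0.09), against 19.0% and 16.5% of all genes. The droplet coat gene Plin2 had 673, 845 and 935 units in control and 1153, 1388 and 1619 in the combined group, with no overlap, and rose by 0.70 (SE 0.12). Plin4 rose by 1.62 (SE 0.37), and the droplet fusion genes Cidec and Cidea rose by 1.06 (SE 0.23) and 1.04 (SE 0.20), with Cidec above noise in 4 of 6 control samples and Cidea in 2. Plin5, the coat protein of droplets held against mitochondria, fell by 0.94 (SE 0.16). The lipases Pnpla2 (-0.29, SE 0.11) and Mgll (-0.44, SE 0.13) also fell, and the other probes of Mgll differed by -0.73 (past the threshold) and -0.20 (not past it). Pnpla2 missed the threshold without control replicate 4, 5 or 6 or combined replicate 2, 3, 4 or 5 (-0.22 at the smallest). Of 19 lipoprotein and uptake genes, 3 rose and 3 fell (median -0.08), shares no higher than those of all genes (19.0% and 16.5%). Lpl, the lipase that releases fatty acids from lipoproteins, had 400, 432 and 488 units in control and 623, 1381 and 2349 in the combined group, a rise of 1.48 (SE 0.20, adjusted p = 2.32e-06). The lipoprotein receptor gene Vldlr rose by 1.03 (SE 0.21) and Apoa4 by 0.87 (SE 0.20), while Mttp, needed to load lipid onto apolipoprotein B, fell by 0.57 (SE 0.13).

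In fatty acid oxidation, 9 of 27 measured members rose and 2 fell (median 0.20). Acadm, a mitochondrial acyl-CoA dehydrogenase, rose by 0.54 (SE 0.08), with 10113 to 12722 units in control and 14075 to 17261 in the combined group. Fgf21, a hormone that the liver releases under metabolic stress, had 218, 245 and 394 units in control and 397, 717 and 1092 in the combined group, and rose by 1.28 (SE 0.21, adjusted p = 4.03e-05). Acot4 rose by 0.98 (SE 0.17). The coactivator gene Ppargc1a, which drives oxidation and gluconeogenesis, fell by 0.76 (SE 0.15), and the receptor gene Ppara differed by 0.02 (SE 0.10). In the bile acid and sterol exporter list, 5 of 17 members rose and 3 fell (median 0.19). Those that rose included the bile acid synthesis gene Hsd3b7 (0.53, SE 0.07), the phospholipid exporter gene Abcb4 (0.57, SE 0.12) and the bile salt exporter gene Abcb11 (0.51, SE 0.10), and Cyp7b1 fell by 1.06 (SE 0.23). Cyp7a1, the rate-limiting enzyme of bile acid synthesis, did not pass (0.85, SE 0.38, adjusted p = 0.0877), and its size rested on single samples, at 0.37 without control replicate 2 and 1.07, past the threshold, without control replicate 5. Among 16 cholesterol genes 1 rose (Ebp) and 3 fell, among them the regulator gene Srebf2 (-0.57, SE 0.12), whose dimmer probe did not pass (-0.09). The number that fell was 5 without control replicate 2 and 6 without combined replicate 1.

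Genes of glucose output fell. Of 15 measured members of gluconeogenesis and glycogen metabolism, 10 fell and 2 rose (median -0.41, against -0.003 for all genes). Pck1, which commits carbon to gluconeogenesis, had 72.9, 99.9 and 119 units in control and 20.5, 37.4 and 53.0 in the combined group, with no overlap, a difference of -0.93 (SE 0.10, adjusted p = 2.96e-07). This probe was dim, far below those of Fbp1 and G6pc (at least 8881 and 7091 units in control), so the size of the Pck1 fall is uncertain. A still dimmer Pck1 probe differed by -0.47, past the threshold. Pcx, encoding pyruvate carboxylase, differed by -0.88 (SE 0.11) on its bright probe and by 0.01 on a second probe. Fbp1 fell by 0.40 (SE 0.08) and G6pc, the last enzyme of glucose release, by 0.69 (SE 0.17). Ppp1r3b, which targets a phosphatase to glycogen, fell by 0.96 (SE 0.22). In sugar entry and glycolysis, 8 of 14 members fell and 1 rose (median -0.32). The fructose-metabolising genes Khk and Tkfc fell by 0.53 (SE 0.16) and 0.65 (SE 0.15), the kinase gene Pdk1 fell by 0.65 (SE 0.12), and the pyruvate kinase gene Pkm, the form of non-hepatocyte tissues, rose by 0.73 (SE 0.12). The glucose transporter gene Slc2a2 differed by -0.00 (SE 0.17), but another of its probes rose by 0.44 (adjusted p = 0.00314).

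Insulin signalling genes showed 8 falls among 17 members (median -0.24, against 16.5% of all genes falling), the other 9 not passing. The count rested on single samples and was 5 without control replicate 1 or 6 or combined replicate 2. Eif4ebp3, a repressor of cap-dependent translation, had 477, 894 and 1863 units in control and 50.1, 100 and 153 in the combined group, a difference of -2.74 (SE 0.38, 6.67-fold, adjusted p = 3.96e-06). Its relative Eif4ebp1 fell by 0.48 (SE 0.10). The transcription factor gene Foxo1 (-0.43, SE 0.15), the receptor gene Insr (-0.27, SE 0.09) and the adaptor gene Irs2 (-0.40, SE 0.15) fell by small amounts. Foxo1 missed the threshold without any 1 of control replicates 1, 5 and 6 or combined replicates 1 and 2 (-0.33 at the smallest). Insr had a second probe near noise that did not pass (-0.14), and it missed the threshold without control replicate 1 or 6 or combined replicate 4 or 6 (-0.21 at the smallest). Irs2 missed it without control replicate 1, 2, 3 or 4 or combined replicate 1, 2 or 5 (-0.33 at the smallest). Among amino acid catabolism and urea cycle genes, 10 of 21 fell and 1 rose (median -0.23). The urea cycle genes Asl, Ass1, Cps1 and Arg1 fell by 0.95 (SE 0.19), 0.60 (SE 0.11), 0.58 (SE 0.12) and 0.47 (SE 0.13), and the member that rose was Oat (0.34, SE 0.12). Oat missed the threshold without control replicate 1 or 2 or combined replicate 2 or 5 (0.25 at the smallest).

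**Figure D2:**
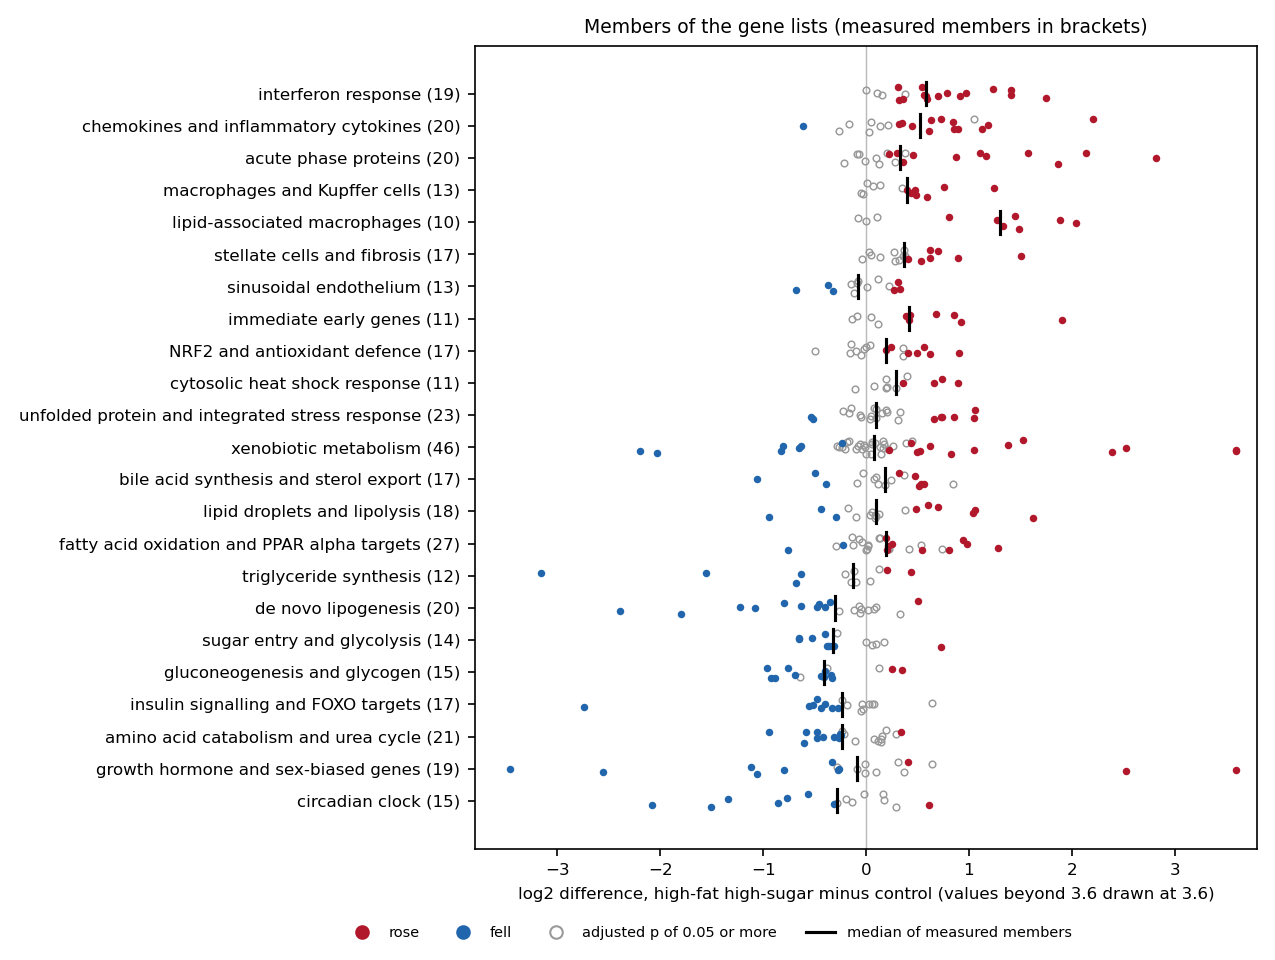
Log2 difference, high-fat high-sugar minus control, of every measured member of 23 gene lists. Filled points passed an adjusted p of 0.05, open points did not, and the black line is the median of the list. Members of the interferon list lie mainly to the right of 0 (15 of 19 rose), and those of gluconeogenesis and glycogen mainly to the left (10 of 15 fell).

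Genes induced by interferon rose almost throughout their list, in which 15 of 19 measured members rose and the other 4 did not pass (median 0.59, against 19.0% of all genes rising). Interferons act through STAT and IRF transcription factors that bind interferon-stimulated response elements in promoters. Cxcl10, a chemokine that draws activated T cells, had 70.3, 93.9 and 121 units in control and 254, 332 and 673 in the combined group, a rise of 1.75 (SE 0.22, adjusted p = 1.09e-06). The guanylate-binding protein gene Gbp2 had 157, 227 and 241 units in control and 457, 611 and 819 in the combined group, a rise of 1.41 (SE 0.19). Ifit3, an antiviral effector, had 282, 335 and 616 units in control and 722, 886 and 1338 in the combined group, a rise of 1.23 (SE 0.16). For all 3 the combined samples lay above every control sample. Cxcl9 rose by 1.41 (SE 0.30), Rsad2 by 0.97 (SE 0.18), Usp18 by 0.91 (SE 0.19) and Isg15 by 0.59 (SE 0.19). Isg15 missed the threshold without control replicate 1 (0.49) or combined replicate 1 (0.51). The transcription factor gene Irf1 rose by 0.54 (SE 0.13), though its 3 other probes did not pass.

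The promoters of these 3 genes are shown because they carry the letters that interferon factors recognise. RefSeq windows (GRCm38.p6, 250 bases before to 50 bases after the transcript start) were found for 17 of the 19 interferon genes tested. The letters GAAANNGAAA, searched with the reverse complement TTTCNNTTTC, were in 8 of the 17 windows and in 7 of the 14 windows of genes that rose, against 1079 of 27025 genes in the RefSeq table (3.99%). Capitals mark the matches. The windows are chr5:92348840-92349139 (minus strand) for Cxcl10, chr19:34583279-34583578 (plus strand) for Ifit3 and chr3:142620413-142620712 (plus strand) for Gbp2.
Cxcl10: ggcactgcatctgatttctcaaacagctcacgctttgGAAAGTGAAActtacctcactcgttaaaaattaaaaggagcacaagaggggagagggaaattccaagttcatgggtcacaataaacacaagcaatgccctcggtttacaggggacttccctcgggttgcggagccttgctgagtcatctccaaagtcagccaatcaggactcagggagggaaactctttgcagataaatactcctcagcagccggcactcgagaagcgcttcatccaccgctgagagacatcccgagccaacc
Ifit3: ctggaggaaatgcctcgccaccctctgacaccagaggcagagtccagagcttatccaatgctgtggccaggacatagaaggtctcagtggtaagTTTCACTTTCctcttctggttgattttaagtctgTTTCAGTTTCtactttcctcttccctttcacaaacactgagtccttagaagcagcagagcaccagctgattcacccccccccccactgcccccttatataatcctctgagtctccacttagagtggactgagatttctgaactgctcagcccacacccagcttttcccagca
Gbp2: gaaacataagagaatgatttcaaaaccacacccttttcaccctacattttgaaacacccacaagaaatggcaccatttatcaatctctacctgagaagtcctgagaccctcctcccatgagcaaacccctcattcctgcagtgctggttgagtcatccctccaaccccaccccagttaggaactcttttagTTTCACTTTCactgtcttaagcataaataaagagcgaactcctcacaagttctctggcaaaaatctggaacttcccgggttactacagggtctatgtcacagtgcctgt
Cxcl10 has 1 match, 213 bases before the start, Ifit3 has 2, at 156 and 122 bases before it, and Gbp2 has 1, 59 bases before it. A match is a description of the letters, not a measured binding site.

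Chemokines and inflammatory cytokines rose in 12 of 20 measured members, and 1 fell (median 0.53). Ccl4, a macrophage chemokine, had 4.59, 9.52 and 19.7 units in control and 52.3, 175 and 288 in the combined group, with no overlap, a rise of 2.21 (SE 0.26, adjusted p = 6.02e-07). The interleukin 1 receptor antagonist gene Il1rn rose by 1.13 (SE 0.14), the bacterial lipoprotein receptor gene Tlr2 by 1.18 (SE 0.15), Il1a by 0.84 (SE 0.13), Il1b by 0.86 (SE 0.22) and the adhesion molecule gene Icam1 by 0.63 (SE 0.13). Il18 fell by 0.61 (SE 0.13), but its second probe rose by 0.41. Of the acute phase proteins, which hepatocytes secrete in inflammation, 11 of 20 rose and the other 9 did not pass (median 0.33). Orm2 had 378, 421 and 642 units in control and 1001, 2427 and 3591 in the combined group, a rise of 2.14 (SE 0.45). Lcn2, an iron-siderophore carrier, ranged from 108 to 1009 in control and from 789 to 4616 in the combined group, so the groups overlapped while the rise was 2.82 (SE 0.62, adjusted p = 0.000865). Saa1 rose by 1.87 (SE 0.49) and Saa3 by 1.58 (SE 0.31), the latter from 111 to 134 units to 243 to 1090. Orm1, already among the brightest genes, differed by -0.01 (SE 0.12). Hamp, the hormone that limits iron export, rose by 1.11 (SE 0.34), and among 13 iron and heme genes 5 rose, including the iron exporter gene Slc40a1 (0.84, SE 0.12) and the ferritin gene Ftl1 (0.73, SE 0.13).

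Markers of lipid-laden macrophages rose. Of 10 measured members of the lipid-associated macrophage list, 7 rose and the other 3 (Cd9, Ctsd, Ctsl) did not pass, with a median of 1.30. The Ctsd probe lay near noise (5.96 to 15.9 units in control). Lgals3, the galectin of activated macrophages, had 55.4, 64.2 and 84.8 units in control and 147, 359 and 477 in the combined group, a rise of 1.88 (SE 0.18, adjusted p = 2.55e-08). Ctsb, a lysosomal protease, had 358, 443 and 488 units in control and 1025, 1114 and 1745 in the combined group, a rise of 1.45 (SE 0.11). In high-sugar and high-fat Ctsb had 772 to 1085 and 425 to 499 units, whereas Cd63 had 203 to 275 and 431 to 1645. The list members thus did not share 1 pattern across the single treatments. Gpnmb, a lysosomal glycoprotein, had 2.68, 14.7 and 33.5 units in control and 23.9, 176 and 478 in the combined group, a rise of 2.04 (SE 0.31), with 1 combined sample inside the control range. Cd63 rose by 1.33 (SE 0.28), the collagenase gene Mmp13 by 1.27 (SE 0.16), though its second probe differed by -0.13 and did not pass and only 2 of 6 control samples were above noise for it, and the lipid receptor gene Trem2 by 0.80 (SE 0.16). Of 13 general macrophage and Kupffer cell markers, 7 rose and the other 6 did not pass (median 0.40). Lyz2 rose by 1.25 (SE 0.22), Mpeg1 by 0.59 (SE 0.11, above noise in 1 of 6 control samples), C1qb by 0.48 (SE 0.12) and Vsig4 by 0.44 (SE 0.12). The Kupffer cell genes Clec4f (0.14, SE 0.11) and Timd4 (-0.03, SE 0.07) and the receptor gene Csf1r (-0.05, SE 0.11) did not pass, though a dimmer Csf1r probe rose by 0.23 (adjusted p = 0.0334). The Timd4 probe lay near noise (3.72 to 15.8 units in control and 5.75 to 14.3 in the combined group). A fall of Timd4 could therefore hardly show.

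In the stellate cell and fibrosis list, 7 of 17 members rose and the other 10 did not pass (median 0.37). Timp1, an inhibitor of collagenases, had 7.13, 8.66 and 10.2 units in control and 19.8, 64.4 and 215 in the combined group, with no overlap, a rise of 1.51 (SE 0.24, adjusted p = 2.51e-05), and its second probe rose by 1.48. The collagen gene Col1a1 had -1.60, 6.26 and 14.2 units in control, at noise in 3 of 6 samples, and 14.6, 36.9 and 111 in the combined group, a rise of 0.90 (SE 0.19). Loxl1, which cross-links elastin, rose by 0.62 (SE 0.17), Col5a1 by 0.54 (SE 0.14), Lum by 0.63 (SE 0.18) and Dcn by 0.41 (SE 0.11), although 1 of the 3 other Dcn probes fell. Acta2, the smooth muscle actin of activated stellate cells, rose by 0.70 (SE 0.27, adjusted p = 0.0413) on its brightest probe while its 3 other probes did not pass. Its call was lost without any 1 of control replicates 1, 3, 4, 5 and 6 or combined replicates 1 and 4, with 0.42 as the lowest value, without combined replicate 4. Lrat, a marker of quiescent stellate cells (0.03, SE 0.07), and the stellate cell marker Des (0.36, SE 0.26) did not pass. The Lrat probe lay near noise (2.26 to 10.4 units in control), so a fall could hardly show. Des had 377 units in combined replicate 4 and at most 51.7 in the others. With 1 sample left out its difference was -0.04 at the lowest.

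The 6 combined samples differed among themselves in these genes. Over the 14 members of the lipid-associated macrophage and stellate lists that rose, replicate 1 was the highest combined sample for 10 and replicate 3 the lowest for 11. Gpnmb had 478 units in replicate 1 and 23.9 in replicate 3, Timp1 had 215 and 19.8, and Col1a1 had 111 and 14.6. The summed intensity of the 10 lipid-associated macrophage markers was 1418 to 1855 in control and 2645 to 5998 in the combined group. That of the 17 stellate markers was 4963 to 5486 and 5218 to 9332, and that of the 13 macrophage markers 4908 to 5466 and 6261 to 10427. The 5 neutrophil markers summed to 53.7 to 94.4 in control and 76.3 to 311 in the combined group, and 3 of the 5 rose, with S100a8 up by 1.01 (SE 0.31). With a floor of 16 in place of the offset only 1 of the 5 rose. Of 13 sinusoidal endothelial markers, 3 rose and 3 fell, with Ehd3 down by 0.68 (SE 0.12) and Clec4g up by 0.33 (SE 0.08), its dim second probe not passing (-0.10). Cholangiocyte markers were 227 to 473 units against 268 to 414 in control, and the 4 T and NK cell markers 47.6 to 67.9 against 59.5 to 99.6. The part that the shares of these cells took in the results above was not tested.

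**Figure D3:**
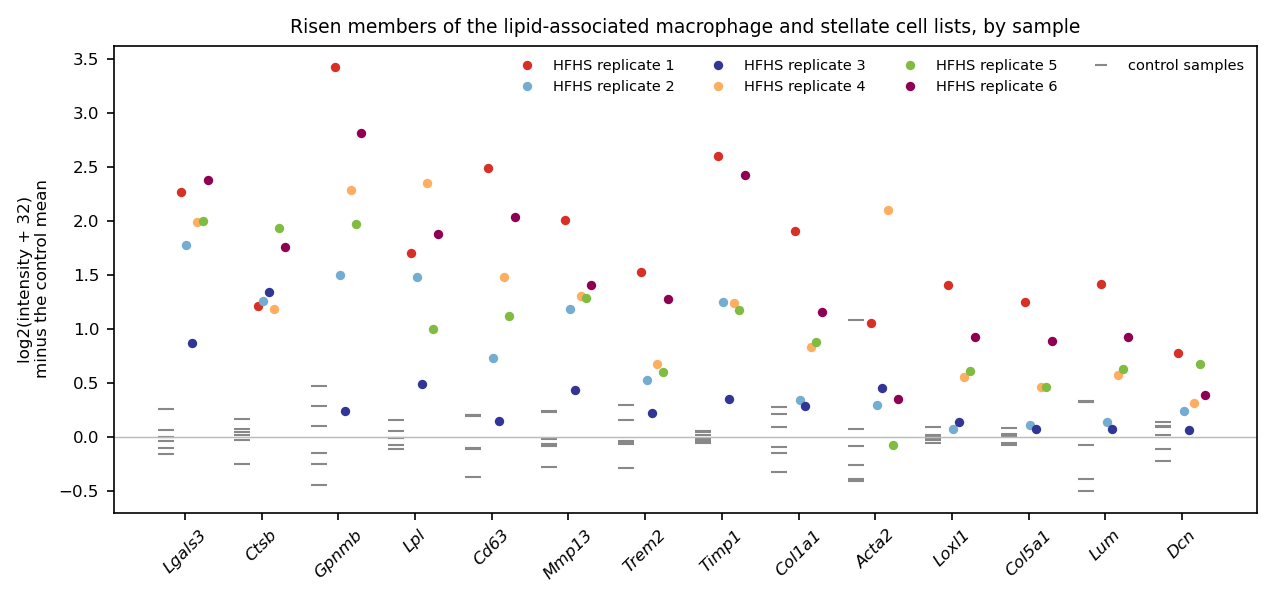
The 14 members of the lipid-associated macrophage and stellate cell lists that rose, as log2(intensity + 32) minus the control mean of each gene, with the 6 high-fat high-sugar samples as coloured points and the 6 control samples as grey dashes. Replicate 1 is the highest combined sample for 10 genes and replicate 3 the lowest for 11.

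Of the immediate early genes, transcribed within minutes of a stimulus, 7 of 11 measured members rose (median 0.42), against 19.0% of all genes, and 4 of 8 under a stricter filter on dim probes. Egr1 had 22.3, 70.4 and 102 units in control and 127, 332 and 589 in the combined group, a rise of 1.91 (SE 0.34). Fos and Atf3 lay at noise in every control sample and rose by at least 1.48-fold and at least 1.35-fold (adjusted p = 5.15e-06 and 2.68e-07). Neither would have passed the filter on dim probes without the combined group, so their calls are no support for the count of this list. Of 17 NRF2 and antioxidant genes, 7 rose (median 0.19), including the sulfiredoxin gene Srxn1 (0.90, SE 0.14), the glutathione synthesis gene Gclm (0.62, SE 0.09) and catalase, Cat (0.56, SE 0.11; -0.09 and not past the threshold on a dim second probe), while Hmox1 passed only without control replicate 6 (0.45) or combined replicate 3 (0.46). Of 23 genes induced by misfolded protein or by the integrated stress response, 6 rose and 2 fell (median 0.09), against 19.0% and 16.5% of all genes, and 10 rose without combined replicate 3. Atf3 is also among the 6 that rose, and its call is no support for this count either. The endoplasmic reticulum chaperone genes Calr (1.06, SE 0.19), Hsp90b1 (1.05, SE 0.18), Dnajb9 (0.73, SE 0.13) and Pdia6 (0.66, SE 0.09) rose with no overlap between the groups, and Trib3 fell by 0.51 (SE 0.17). Ddit3 did not pass on its bright probe (0.09, SE 0.19), but its dim second probe rose by 0.58 (adjusted p = 5.74e-05), from a mean of 8.97 to 28.7 units. Trib3 missed the threshold without control replicate 6 (-0.43) or combined replicate 2 (-0.43), while its dimmer probes differed by -0.83 and -0.97, both past the threshold. In the cytosolic heat shock list 4 of 11 members rose (median 0.29), among them Hspa1a (0.90, SE 0.23; its second probe 0.34, not past the threshold) and Dnajb1 (0.73, SE 0.16). Of 13 cell cycle genes 4 rose, led by the cyclin gene Ccnd1 (1.30, SE 0.15), which had 384 to 563 units in control and 717 to 1818 in the combined group, and Rrm2 fell by 0.68 (SE 0.11).

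Clock genes fell, in 7 of 15 measured members, and 1 rose (median -0.28). The circadian clock is a loop in which CLOCK and BMAL1 bind E-boxes and drive their own repressors. Ciart, one of these repressors, had 581, 1069 and 2001 units in control and 137, 288 and 352 in the combined group, with no overlap, a difference of -2.08 (SE 0.32, adjusted p = 1.51e-05), and its other probes differed by -2.27 and -1.91. Usp2, a deubiquitinase under clock control, fell by 1.34 (SE 0.19), the output factor gene Tef by 0.86 (SE 0.17), the repressor genes Cry2 by 0.77 (SE 0.12) and Per1 by 0.57 (SE 0.19), and Rgs16 by 1.51 (SE 0.48). Bhlhe40 rose by 0.61 (SE 0.20), a call lost without control replicate 4 or 5 or combined replicate 5 or 6 (0.44 at the smallest). Per1 missed the threshold without control replicate 1 (-0.44) or 6 (-0.46) or combined replicate 1 (-0.39), while its dimmer probe differed by -0.90, past the threshold. Nr1d1 (-0.28, SE 0.18) and Dbp (-0.14, SE 0.15) did not pass. The time of day of sampling is not given in the labels, and a difference in it between groups cannot be told apart from the diet. The E-box letters CACGTG, a palindrome, were in 3 of 13 clock gene windows, all 3 among the 7 with a window that fell, against 2187 of 27025 genes (8.09%). The Ciart window, chr3:95882179-95882478 on the minus strand of GRCm38.p6, is shown because it holds 3 matches, at 116, 58 and 44 bases before the start, in capitals.
Ciart: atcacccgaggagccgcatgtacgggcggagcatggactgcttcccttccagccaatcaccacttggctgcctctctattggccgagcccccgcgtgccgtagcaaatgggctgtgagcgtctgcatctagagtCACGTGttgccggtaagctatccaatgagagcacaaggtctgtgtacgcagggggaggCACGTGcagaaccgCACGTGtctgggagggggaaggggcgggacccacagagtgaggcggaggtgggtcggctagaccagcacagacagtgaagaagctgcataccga

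Several male-biased liver genes fell, and the female-biased Cyp2b9 rose. Pulses of growth hormone acting through STAT5B keep many liver genes male-biased or female-biased in mice. Of 19 measured members of this list 8 fell and 3 rose (median -0.09), and Cyp2b9 and Cyp2b13, described above, are among those that rose. Cyp2b13, also female-biased, passed the filter on dim probes only through the combined group and is no support for this count. Hsd3b5 had 1548, 3279 and 4540 units in control and 3.86, 427 and 1394 in the combined group, a difference of -3.46 (SE 0.63, 11.0-fold, adjusted p = 0.000126). Cyp4a12b, a male-biased fatty acid hydroxylase gene, had 1994, 2366 and 2622 units in control and 100, 360 and 1155 in the combined group, a difference of -2.55 (SE 0.42). All 6 combined samples lay below all controls for both genes. Cyp4a12a, a near-identical copy, fell by 1.12 (SE 0.30), Elovl3 by 0.80 (SE 0.19) and Mup3 by 0.26 (SE 0.07). Igf1, the hormone made under growth hormone, fell by 0.33 (SE 0.06) on its bright probe, but its second probe, with means of 2469 and 2448 units, differed by -0.01 and did not pass. The receptor gene Ghr rose by 0.41 (SE 0.12). Serpina1e, an antitrypsin-family gene outside the list, fell from 12934 to 23222 units to 528 to 9636, a difference of -2.36 (SE 0.45).

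The combined group was then set against each single treatment. It differed from the high-sugar group in 875 genes (7.87%; 483 higher, 4.35%, and 392 lower, 3.53%) and from the high-fat group in 3402 (30.6%; 1841 higher, 16.6%, and 1561 lower, 14.0%). Of the 2113 genes higher than control, 179 were also higher than both single treatments, and 673 differed from neither. Of the 1836 lower genes, 73 were lower than both single treatments, and 874 differed from neither. On the log2 scale the combined difference departed from the sum of the 2 single differences in 275 genes (2.47%; 129 upward, 1.16%, and 146 downward, 1.31%). That count rested on single libraries: it was 170 without control replicate 1, 175 without control replicate 3, 449 without control replicate 4, 177 without high-sugar replicate 2 and 161 without combined replicate 4. The count against high-sugar was 535 without combined replicate 1. Among genes higher than control, 30 departed upward and 51 downward, and among lower genes 51 departed upward and 23 downward.

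The genes described next were chosen after their values were seen. Cyp2b9 had mean intensities of 37.1 in control, 1417 in high-sugar, 1116 in high-fat and 5319 in the combined group, and exceeded high-sugar by 1.96 (adjusted p = 0.0411) and high-fat by 2.74. The difference from high-sugar missed the threshold under 9 of 22 alternatives (adjusted p up to 0.181). Cyp2b13 had -2.16, 19.8, 0.446 and 190 in the same order, and departed upward from the sum by 1.80 (adjusted p = 0.0475), a call lost under 23 of 34 alternatives. Gsta1 had 3.67, 28.2, 4.58 and 184, with a departure of 1.80 (adjusted p = 0.0207). Replicates of these genes differed widely within the combined group, and means of the dim genes lie near noise outside it. Gpnmb had 16.5, 12.7, 32.8 and 210 (departure 1.73), Timp1 8.70, 9.16, 12.8 and 102 (1.40), Mmp13 3.28, 9.09, 5.19 and 56.7 (0.97) and Il1b 82.4, 61.0, 70.6 and 181 (1.29). These 4 inflammatory and matrix genes were higher in the combined group than in any other group, with adjusted p values of the departure of 0.0366, 0.0254, 0.0174 and 0.0254. The departure of Gpnmb was lost under 15 of 34 alternatives (adjusted p up to 0.0632), that of Il1b under 2, including without control replicate 3, and that of Timp1 under 1. Lpin1 was lower than both single treatments, with means of 2506, 1444, 668 and 263, and no departure from the sum was called (-0.37, SE 0.49). Eif4ebp3 had 966, 419, 1320 and 107, and departed downward by 1.97 (adjusted p = 0.0446), a call lost under 21 of 34 alternatives. The complement gene C6 had 1672, 947, 978 and 551 and its partner C8b 4965, 3674, 4100 and 2127, both lower than either single treatment with no departure called. Without combined replicate 1 the difference of C6 from high-sugar missed the threshold, as did that of Lpin1 from high-fat without high-fat replicate 6. Some genes split by replicate number within the combined group. Replicates 1 to 3 had 6673 to 9227 units of Cyp2b9 and replicates 4 to 6 had 2423 to 3866. In the same order Cyp2b13 had 239 to 461 and 45.6 to 66.6. Hsd3b5 had 3.86 to 88.9 and 766 to 1394, and C6 238 to 428 and 627 to 864. Gsta1 did not split this way. The labels name no batch, and the cause was not tested.

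Other genes rose less than the single treatments would add up to, sat between them, or were not called apart from 1 of them. Fgf21 had 264 units in control, 481 in high-sugar, 1206 in high-fat and 720 in the combined group, so the combined mean was below that of high-fat (-0.77, adjusted p = 0.00674) and departed downward by 1.54 (adjusted p = 0.00583). Acnat2, an acyltransferase gene, showed the same order, with 196, 305, 878 and 564 (departure -1.23, adjusted p = 0.0151). Cyp2a5, a coumarin hydroxylase gene, had 8113, 12481, 2444 and 8969, and did not differ from control (0.17, SE 0.16, adjusted p = 0.435), while it exceeded high-fat by 1.85. Aatk, a kinase gene, had 174, 891, 56.2 and 455, above control by 1.25 (SE 0.14), below high-sugar by 0.93 and above high-fat by 2.46. Thrsp had 3446, 2883, 648 and 585 and Scd1 8699, 1700, 8120 and 2665. No difference of the combined group was called from high-fat for Thrsp (-0.16, adjusted p = 0.697). None was called from high-sugar for Scd1 (0.70, adjusted p = 0.149), although its combined mean was the higher.

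**Figure D4:**
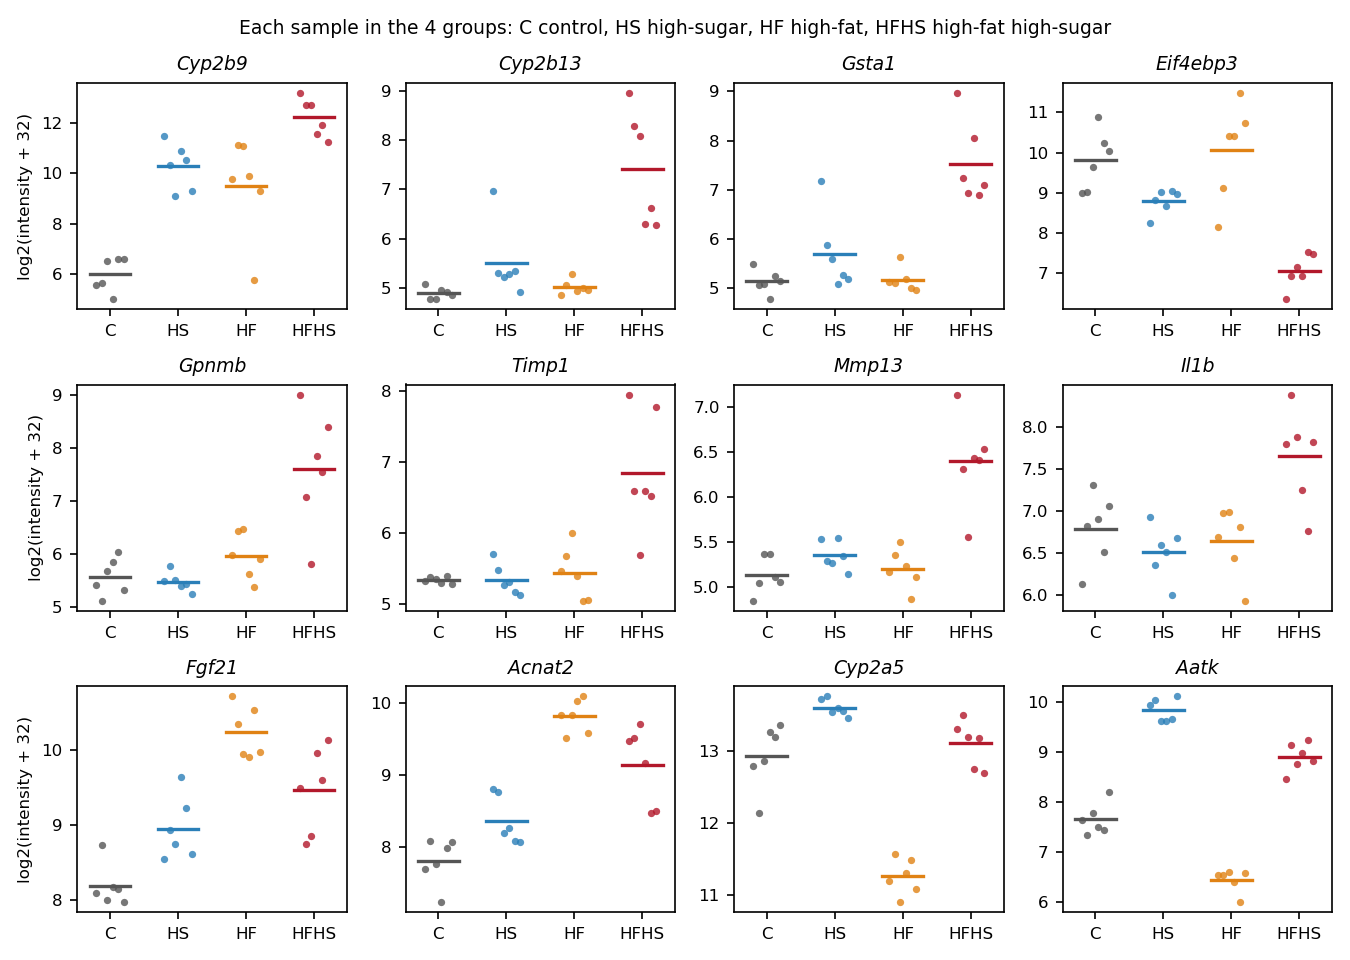
Each of the 6 samples of control (C), high-sugar (HS), high-fat (HF) and high-fat high-sugar (HFHS) for 12 genes on the log2(intensity + 32) scale, with the group mean as a bar; each panel has its own axis, which does not start at 0. Gpnmb, Timp1 and Mmp13 stand out in the combined group alone, whereas Fgf21 is highest in high-fat and Cyp2a5 is lowest there.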

How the data were processed

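Total liver RNA of 24 samples was read on an Illumina bead array, with GenomeStudio 2011.1 named in the submitters' processing notes. The deposited values are linear intensities. Read from the values themselves, they are background-subtracted (37.7% are negative) and quantile-normalised, since sorted columns differ by at most 0.231. A further 48 columns that match no label were not used. A probe was kept if it passed the noise limit (the normal 5% tail of the noise) on at least 6 of 24 arrays, which kept 20216 of 45281 probes, 16910 with a symbol, and the brightest probe stood for each gene. log2(intensity + 32) was fitted with limma 3.58.1 (R 4.3.3), with 1 mean per group over all 24 arrays and the prior variance following intensity (degrees of freedom 20 residual, 6.949 prior). Tests were two-sided, with Benjamini-Hochberg adjustment over 11115 genes at 0.05, and the fit was tested on simulated data. Array number limits the precision. Of 2289 other kept probes of called genes, only 1000 passed the threshold, and 144 of those 1000 went the opposite way (14.4%).

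Named genes were the 15 largest rises and falls, defining cell markers, and list members with a small adjusted p or needed for the roles of the list. Not all of the 4 members with the smallest adjusted p of a list were named. Bscl2, Apoe and Sesn1, for example, were left out. Members and lists were chosen with earlier results of these data known. Equal replicate numbers did not pair control and combined samples: correlations of their deviations ran from -0.167 to 0.0153. For some genes replicates 1 to 3 lay fully apart from replicates 4 to 6 within a group, as for Usp18 in control (323 to 393 against 722 to 895 units). How many genes split this way was not counted. Alternatives changed the offset, normalisation, dim-probe filter, probe choice, weights, replicate block and arrays fitted.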

Additional observations from a re-analysis of the deposited data

Results flagged for a closer look

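A sample stood apart from the other 5 of its group, by a gap that is large against the range of the group, in 15 of 342 combinations of named gene and group (4.39%); chance gives about 1 in 20. In control, replicate 2 was highest for Acta2 (565 units), Clec4f (1200) and Fgf21 (394) and lowest for Cyp7a1 (231) and Krt8 (630). Replicate 4 was lowest for Ctsd (5.96) and Pdia6 (11.4), and replicate 1 for Slc2a2 (298). In the combined group, replicate 1 was highest for Srxn1 (846) and lowest for Cyp1a2 (2809) and Ehd3 (245). Replicate 5 was highest for Aldh1a1 (609) and Cat (837), replicate 4 for Des (377, the others at most 51.7) and replicate 2 for Fasn (25.7).

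The combined difference departed from the sum of the single differences, by the test of that departure, for genes in both directions. Upward departures were 1.80 for Cyp2b13, 1.80 for Gsta1, 1.73 for Gpnmb, 1.40 for Timp1, 1.29 for Il1b, 1.18 for Cyp2a5, 0.97 for Mmp13, 0.86 for Krt8, 0.76 for Cyp1a2 and 0.63 for Dgat2. Downward departures were -1.97 for Eif4ebp3, -1.54 for Fgf21, -1.23 for Acnat2, -1.04 for the dim albumin (Alb) probe, -0.71 for Mgll and -0.58 for Pck1. The departures of Mgll and Pck1 were lost under 15 and 14 of 34 alternatives (adjusted p up to 0.0995 and 0.103), and those of Cyp2b13, Eif4ebp3 and Gpnmb under 23, 21 and 15.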

How the results depend on the processing

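Of the 146 named genes past the threshold, 131 kept their call and direction under every alternative that measured them. The call was lost under at least 1 for 15, and none changed sign. The stricter filter on dim probes measured 143 of the 146, without Fos, Atf3 and Mpeg1. The count of genes at 1.5-fold or more depended on the offset: an offset of 16 gave 766 higher genes, an offset of 64 gave 484 (304 higher, 180 lower) and a floor of 16 without an offset gave 1408 (834 higher, 574 lower). Leaving out 1 sample at a time gave 3591 to 3841 called genes, 1935 to 2068 higher and 1656 to 1781 lower, 742 to 854 at 1.5-fold (472 to 558 higher, 258 to 313 lower), 535 to 959 against high-sugar, 3007 to 3279 against high-fat and 161 to 449 departures from the sum. Array weights gave 453 departures. The cause of these shifts was not tested, except that the offset by construction shrinks the folds of dim genes. The replicate block gave 3924 called genes, 834 against high-sugar, 3357 against high-fat and 264 departures, and it ended the departure call of Gpnmb; the replicate numbers do not pair the samples. Signal near background limits Cyp2b13, Cyp2b23, Fos, Atf3, Gsta1, Mpeg1, Mmp13, Cidea and Col1a1, among others, in control.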

Other observations

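Cytoskeletal and protein turnover genes also moved; these families were chosen after their values were seen. All 4 measured tropomyosin genes, whose products wrap actin filaments, rose (median 1.04). Tpm2 had 30.6, 42.7 and 51.6 units in control and 132, 178 and 224 in the combined group, with no overlap, a rise of 1.51 (SE 0.12, adjusted p = 3.71e-09), and its mean was 160 in high-sugar and 43.9 in high-fat. Tpm4 rose by 1.01 (SE 0.09; 0.25 and 0.16 on dimmer probes, the latter not past the threshold) and Tpm1 by 0.64 (SE 0.10). Of 11 tubulin genes 5 rose (3 to 5 over the alternatives), and of 8 annexin genes 5 rose (3 without control replicate 2 or 5 or combined replicate 6) and 1 fell. Krt8, a keratin of hepatocytes, rose by 1.07 (SE 0.12) and departed upward from the sum of the single treatments by 0.86 (adjusted p = 0.00585).

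Of 52 cytosolic ribosomal protein genes, 20 fell (15 to 22 over the alternatives) and 2 rose, with a median of -0.20, against -0.20 in high-sugar and -0.10 in high-fat. Of 33 proteasome subunit genes, 14 rose (13 to 16) and 1 fell (median 0.17). Over all genes 19.0% rose and 16.5% fell. Of 7 terminal complement genes 2 fell, C6 (-1.65, SE 0.22) and C8b (-1.26, SE 0.16).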
